A study of Mus musculus with 6 samples.

Results

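The mitochondrial respiratory chain is built from subunits of 4 large complexes, and the genes described here are 56 nuclear genes that encode such subunits. They were chosen by name: every row of the deposited gene table whose symbol is on a list of 56 subunits of complexes I to IV, and all 56 were found among 59484 features of the table, of which 23505 carry a symbol. Complex I holds 33 of these genes, complex II 4, complex III 8 and complex IV 11, with *Ndufa4* counted in complex IV, where the protein is now placed. The libraries came from polyA+ RNA of the cortex of C57BL/6 mouse embryos at embryonic day 18.5 (E18.5), 3 of them wild-type and 3 of the Sam68:Slm2 double knockout (dKO), in which the genes of the RNA-binding proteins Sam68 (*Khdrbs1*) and SLM2 (*Khdrbs3*) are knocked out in the whole animal. No treatment was given. Each value is a normalized count, that is, a gene's reads scaled by the size factor of the library. The cortex is a mixture of cells, so fewer cells of a type and less RNA per cell cannot be told apart in these values.

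Electrons from NADH enter the chain at complex I and those from succinate at complex II, pass through ubiquinone to complex III, and travel on cytochrome c to complex IV, which hands them to oxygen. Complexes I, III and IV pump protons across the inner membrane, and ATP synthase uses the resulting gradient. Complexes I, III and IV are mosaics of nuclear subunits and a few core subunits encoded by the mitochondrial genome, whereas complex II is nuclear throughout; neurons, which spend much ATP on ion pumping, depend heavily on the chain.

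In these libraries no respiratory chain gene passed the test between genotypes, in either direction. The mean log2 difference (dKO minus wild-type) was above 0 in 56 of 56 members, with a median of 0.14, which is a 1.10-fold level. Over all 18970 features tested the median was 0.00 and 50.6% were above 0. That common sign rested on 2 of the 3 dKO libraries: the members were high in dKO replicates 2 and 3, and were as low in dKO replicate 1 as in wild-type replicate 1.

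The labels were checked against the targeted genes. *Khdrbs1* gave 8231, 8436 and 7974 normalized counts in wild-type and 114, 197 and 146 in dKO libraries, a log2 change of -5.78 (SE 0.16, limma adjusted *P* = 1.1e-07). *Khdrbs3* fell by 1.05 on the log2 scale (SE 0.09, limma adjusted *P* = 0.00085) and kept 6350 to 7060 normalized counts in dKO, against 12764 to 15215 in wild-type. Recovered reads per library ran from 31837922 to 40896541, and the 56 members together took between 0.521% and 0.671% of them. Of 8 markers of cortical excitatory neurons all passed the filter, while of 4 Hox genes of hindbrain and spinal cord none did and 3 were at 0 in every library.

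The sequences that surround the starts of these genes are shown because nuclear respiratory genes are known for a small set of promoter motifs. RefSeq windows of 300 bases (250 before to 50 after the start, build GRCm38.p6) were on hand for 47 of the 56 members. The following 5 belong to the 4 members with an unadjusted *P*-value under 0.05 and to *Sdhb*, and capitals mark the motif matches.
Ndufa1 (chrX:37191189-37191488, minus strand): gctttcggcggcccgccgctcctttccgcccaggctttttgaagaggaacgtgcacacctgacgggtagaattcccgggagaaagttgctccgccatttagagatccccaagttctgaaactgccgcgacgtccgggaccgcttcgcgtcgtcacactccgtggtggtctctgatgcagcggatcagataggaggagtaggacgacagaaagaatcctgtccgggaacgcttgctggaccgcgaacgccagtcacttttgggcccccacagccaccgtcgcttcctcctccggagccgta
Ndufa6 (chr15:82354242-82354541, minus strand): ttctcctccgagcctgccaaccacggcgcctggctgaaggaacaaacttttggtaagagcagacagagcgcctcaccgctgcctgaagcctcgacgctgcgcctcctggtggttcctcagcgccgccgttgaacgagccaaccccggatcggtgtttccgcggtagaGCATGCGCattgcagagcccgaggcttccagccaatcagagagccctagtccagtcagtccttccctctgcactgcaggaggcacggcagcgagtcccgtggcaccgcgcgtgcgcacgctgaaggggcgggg
Cox7a2 (chr9:79759804-79760103, minus strand): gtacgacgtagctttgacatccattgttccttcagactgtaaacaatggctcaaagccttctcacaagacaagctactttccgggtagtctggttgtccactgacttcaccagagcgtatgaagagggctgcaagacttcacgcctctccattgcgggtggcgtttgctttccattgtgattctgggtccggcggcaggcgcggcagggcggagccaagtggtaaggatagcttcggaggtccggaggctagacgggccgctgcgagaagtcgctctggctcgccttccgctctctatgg
Uqcrh (chr4:116075021-116075320, minus strand): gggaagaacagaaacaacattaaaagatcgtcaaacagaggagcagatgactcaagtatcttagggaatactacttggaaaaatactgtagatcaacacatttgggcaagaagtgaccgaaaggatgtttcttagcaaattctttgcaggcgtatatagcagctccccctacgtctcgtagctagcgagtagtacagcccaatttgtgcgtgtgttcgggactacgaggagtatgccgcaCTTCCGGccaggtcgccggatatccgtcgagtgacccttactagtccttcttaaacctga
Sdhb (chr4:140961021-140961320, plus strand): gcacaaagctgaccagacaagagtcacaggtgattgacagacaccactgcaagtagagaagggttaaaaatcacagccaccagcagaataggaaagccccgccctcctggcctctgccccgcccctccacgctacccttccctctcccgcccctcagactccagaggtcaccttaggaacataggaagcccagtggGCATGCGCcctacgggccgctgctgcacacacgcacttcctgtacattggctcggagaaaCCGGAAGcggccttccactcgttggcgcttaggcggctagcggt

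The NRF1 core was searched as GCGCATGC, the ETS core (bound by GABPA) as CCGGAAG, the YY1 core as AAGATGGC and the TATA box as TATAAA, each on both strands, so that a palindromic NRF1 site is met on either strand with overlapping letters. *Uqcrh* carried an ETS core and *Ndufa6* an NRF1 core, *Sdhb* had 1 of each, and none of the 4 motifs was found in the windows of *Ndufa1* and *Cox7a2*. Among the members with a window, 7 held the NRF1 core (14.9%, against 3.05% of 27025 genes), 11 the ETS core (23.4% against 9.93%) and 7 the YY1 core (14.9% against 3.19%). The letters of the TATA box were met anywhere in the window in 4 members (8.51%), against 15.7% of all genes. In the members their offsets from the start ran from -235 to -52 bases. The member windows were also richer in CpG, with a median of 6.33 CpG per 100 bases against 2.33 over all 32851 windows. These are matches of letters, not measured binding. The median log2 difference between genotypes was 0.11 in the 11 members with an ETS core and 0.14 in the 36 without one. With and without the motif it was 0.11 and 0.14 for the NRF1 core and 0.08 and 0.14 for the YY1 core. For the TATA box letters it was 0.16 and 0.12. These differences were not tested.

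The respiratory chain genes are among the abundant transcripts of this cortex. Their mean over the 6 libraries ran from 733 to 15879 normalized counts with a median of 3275, against 366 for all features tested, and 56 of 56 passed the filter of a mean of at least 10. Per kilobase of transcript, which allows genes to be compared, the median member reached 3474 normalized counts in wild-type, above 95.4% of the features with a known length. Complex IV stood highest with a median of 7525 normalized counts per kilobase, followed by complex III with 3535, complex I with 2683 and complex II with 2278.

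Within complex IV, *Cox4i1*, the largest of its nuclear subunits, was the most abundant member at 18924 normalized counts per kilobase, next to *Cox6a1* at 18243. In complex III the top was *Uqcrh*, the hinge protein next to cytochrome c1, at 9139, and the lowest *Uqcrq* at 1682. In complex I the top was *Ndufb9* at 6844, and *Ndufb2* was lowest at 377. The value for *Ndufb2* rests on a transcript of 4371 bases, the longest of those that the annotation ranks first, and would be 3626 with the shortest of them at 455 bases. *Uqcrq* would likewise stand at 6317, so the low end of the order depends on the transcript chosen. In complex II, *Sdhb* reached 3446 and *Sdhc* 1230 normalized counts per kilobase. The level in complex IV that came out lowest, *Cox7c* with 2337, belongs to a gene with a near-identical processed pseudogene that is listed at a higher level (described further on).

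**Figure D1:**
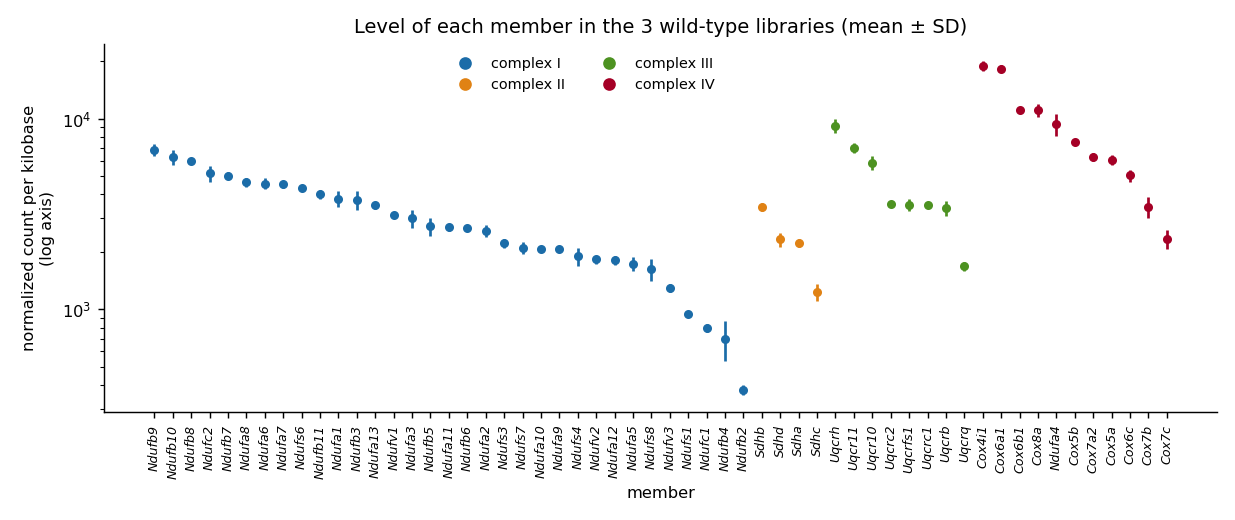
Normalized count per kilobase of transcript (log axis) of each member in wild-type cortex, as the mean and SD of 3 libraries, ordered by level within each complex. Complex IV members such as *Cox4i1* (18924) and *Cox6a1* (18243) stand highest, and the lowest point is *Ndufb2* (377).

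The comparison between genotypes asks whether loss of Sam68 and SLM2 changes the level of these transcripts. limma was fitted on log2(normalized count + 1) over all 18970 features, with *P*-values adjusted over all of them. None of the 56 members had an adjusted *P*-value under 0.05, and the smallest was 0.39 (limma). The same threshold was passed by 0.1% of all features in limma and in edgeR, and by 1.06% in DESeq2. No member passed in edgeR (smallest adjusted *P* = 0.37) or in DESeq2 (smallest adjusted *P* = 0.18). At an unadjusted *P*-value under 0.05, 4 members were higher in dKO (7.14%) where 4.92% of all features were, and 0 were lower where 6.58% of all features were. edgeR gave 5 members higher at that threshold (5.19% of all features) and DESeq2 6 (4.92%). In 1 member every dKO library lay above every wild-type library, against 7.89% of all features, and in 0 members every dKO library lay below, against 8.48%. The median standard error of a member's log2 difference was 0.11, and for 51 of the 56 the 95% interval excluded a 1.5-fold change both ways, with bounds from -0.26 to 0.75 over all members.

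**Figure D2:**
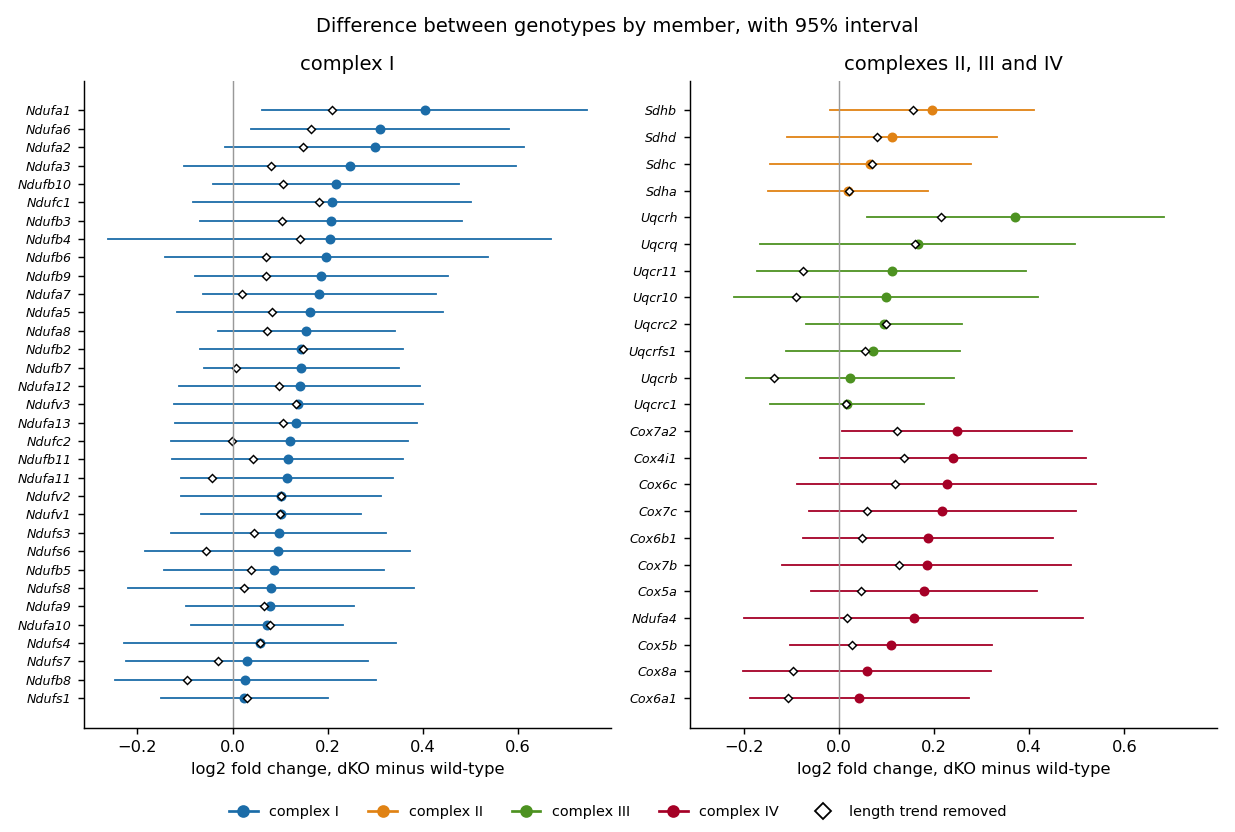
Log2 difference (dKO minus wild-type) of each member with its 95% interval from limma, coloured by complex, and the same difference after the trend with transcript length was removed from each library (open diamonds). The filled points lie above 0 in 56 of 56 members, 52 of the intervals include 0, and the open diamonds lie below 0 in 10 members.

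Complex I, the NADH dehydrogenase, had a median log2 difference of 0.14 over its 33 members, from 0.02 to 0.40. Its NADH-binding N module (9 genes) had a median of 0.10, the ubiquinone-binding Q module (6 genes) 0.09 and the membrane arm (18 genes) 0.15. *Ndufa1*, a small membrane-arm subunit at chrX:37187591-37191238, gave 1635, 1417 and 1731 normalized counts in wild-type and 1605, 2373 and 2437 in dKO. Its first dKO library lay within the wild-type range and the other two lay above it. The means were 1594 ± 161 and 2138 ± 463 (SD, n = 3), a log2 difference of 0.40 (SE 0.15, unadjusted *P* = 0.025 and adjusted *P* = 0.39 in limma), the largest of the 56.

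*Ndufa6*, a subunit of the LYR family that sits on the Q module (chr15:82350139-82354291), gave 2490, 2849 and 2733 in wild-type and 2712, 3556 and 3828 in dKO, a log2 difference of 0.31 (SE 0.12, limma adjusted *P* = 0.39). Here too dKO replicate 1 lay inside the wild-type range. *Ndufa2*, an N-module subunit with a thioredoxin-like fold, showed 1384 to 1601 in wild-type, 1410 in dKO replicate 1 and 2010 and 2099 in the other two, a log2 difference of 0.30 (limma adjusted *P* = 0.45). Its span in the table overlaps *Tmco6* and the protocadherin cluster.

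Of the other membrane-arm members, *Ndufb10* had 4209 to 5030 normalized counts in the wild-type libraries and 4439 to 5964 in the dKO ones (log2 difference 0.22, limma adjusted *P* = 0.50). *Ndufa8* ran from 3772 to 4230 and from 4105 to 4732 (0.16, limma adjusted *P* = 0.50), and *Ndufb3* from 2549 to 3187 and from 2702 to 3598 (0.21, limma adjusted *P* = 0.54). In each of these 3 the genotypes overlapped through dKO replicate 1. *Ndufc1* gave 941 to 1038 in wild-type and 923 to 1340 in dKO (0.21, limma adjusted *P* = 0.56), and *Ndufa7*, an accessory subunit placed in the N module, 2283 to 2481 and 2272 to 3051 (0.18, limma adjusted *P* = 0.54). The most abundant complex I gene per kilobase, *Ndufb9*, ran from 4443 to 5088 and from 4455 to 6082 (0.19, limma adjusted *P* = 0.57), and the least abundant, *Ndufb2*, from 1527 to 1722 and from 1634 to 1940 (0.14, limma adjusted *P* = 0.58). The remaining 23 complex I genes had log2 differences between 0.02 and 0.25, and none reached an unadjusted *P*-value under 0.05. Among them are the core subunits that carry flavin or iron-sulphur clusters, such as *Ndufv1* (0.10) and *Ndufs1* (0.02).

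Complex II, succinate dehydrogenase, also works in the TCA cycle. *Sdha*, its flavoprotein at chr13:74322254-74350248, was the most even of the 4, with 6742, 6157 and 6531 normalized counts in wild-type and 6914, 6456 and 6324 in dKO (log2 difference 0.02, 95% interval -0.15 to 0.19). dKO replicate 1 lay above the wild-type range and the other two within it. *Sdhb*, the iron-sulphur subunit at chr4:140961271-140979198, gave 3759, 4146 and 3900 and then 3933, 4963 and 4683 (0.20, SE 0.10, limma adjusted *P* = 0.47). The membrane anchors overlapped as well, *Sdhc* with 3422 to 4195 and 3787 to 4239 (0.07, limma adjusted *P* = 0.81) and *Sdhd* with 2600 to 3075 and 2735 to 3342 (0.11, limma adjusted *P* = 0.68).

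Complex III, the cytochrome bc1 complex, had a median log2 difference of 0.10 over 8 genes. *Uqcrh* (chr4:116066963-116075070) had the smallest adjusted *P*-value of the 56, with 4505, 5309 and 5182 normalized counts in wild-type and 5045, 7018 and 7577 in dKO. Its dKO replicates 2 and 3 stood clear of the wild-type range and replicate 1 within it. The means were 4999 ± 432 and 6547 ± 1331 (SD, n = 3), a log2 difference of 0.37 (SE 0.14, unadjusted *P* = 0.024 and adjusted *P* = 0.39 in limma).

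*Uqcrc2*, a core protein of the matrix side (chr7:120635189-120659523), was the 1 member whose genotypes did not overlap. It gave 6550, 6824 and 6815 in wild-type and 6827, 7172 and 7570 in dKO, so the lowest dKO library lay just above the highest wild-type library. The log2 difference was 0.09 (SE 0.07, limma adjusted *P* = 0.64), and with edgeR's TMM scaling factors the genotypes of 0 members stood apart. *Uqcrq* ran from 2406 to 2688 and from 2173 to 3383 (0.17, limma adjusted *P* = 0.68), and the Rieske protein gene *Uqcrfs1* from 4448 to 5159 and from 4841 to 5299 (0.07, limma adjusted *P* = 0.75). The other 4 genes of the complex had log2 differences from 0.02 to 0.11.

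Complex IV, cytochrome c oxidase, had the highest median of the complexes, 0.18 over 11 genes, but its transcripts are also the shortest (median 645 bases). With the length trend removed (described further on) its median was 0.05, below 0.08 in complex II and 0.07 in complex I and above 0.04 in complex III. *Cox4i1* (chr8:120668225-120674209), the ubiquitous isoform of subunit 4, gave 13439, 15132 and 14860 normalized counts in wild-type and 13627, 18789 and 19425 in dKO. The means were 14477 ± 909 and 17280 ± 3180 (SD, n = 3), a log2 difference of 0.24 (SE 0.13, limma adjusted *P* = 0.49). Its span overlaps that of *Emc8*.

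*Cox7a2* (chr9:79755241-79759853) gave 3916, 4282 and 4239 and then 4104, 5341 and 5443, a log2 difference of 0.25 (SE 0.11, unadjusted *P* = 0.045 and adjusted *P* = 0.42 in limma). *Cox5a*, a matrix-side subunit, had 3685 to 4157 and 3722 to 4879 (0.18, limma adjusted *P* = 0.54). *Cox6c* ran from 3535 to 4021 and from 3354 to 4976 (0.23, limma adjusted *P* = 0.55), and *Cox6b1*, which faces the intermembrane space, from 6737 to 7039 and from 6325 to 8977 (0.19, limma adjusted *P* = 0.56). In all these genes dKO replicate 1 was the lowest of the dKO libraries. The other 5 genes of complex IV had log2 differences from 0.04 (*Cox6a1*) to 0.18 (*Cox7b*).

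**Figure D3:**
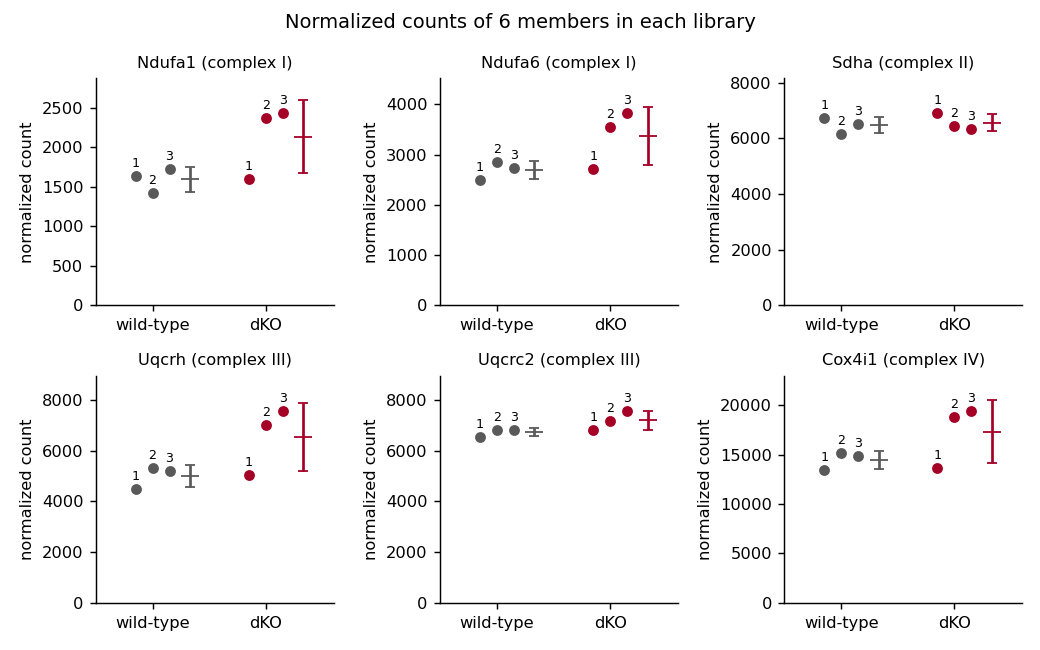
Normalized counts of 6 members in each library (points, numbered by replicate) with the mean and SD of the 3 libraries beside them. In *Ndufa1*, *Ndufa6*, *Uqcrh* and *Cox4i1* dKO replicates 2 and 3 stand above the wild-type libraries and dKO replicate 1 among them; *Uqcrc2* is the member whose genotypes do not overlap, and *Sdha* differs least of the 6.

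*Cox7c* has a near-identical copy with a high level of its own in the table, and from which of the pair those reads came was not tested. The gene itself (chr13:86044798-86046795) gave 1150, 1426 and 1209 normalized counts in wild-type and 1245, 1706 and 1468 in dKO (0.22, limma adjusted *P* = 0.53). The feature at the processed pseudogene *Gm12338* (chr11:75599763-75599954 in GENCODE), identical over the 192 bases aligned, had 3284, 3990 and 3688 and with 2982, 4407 and 4358, and held 2.77 times the mean level of *Cox7c*. Summed, all 3 copies and the gene gave 4434, 5418 and 4897 in wild-type and 4227, 6112 and 5831 in dKO, and the genotypes overlapped. In all, 13 members have at least 1 copy elsewhere (at least 95% identity over 150 bases), but apart from *Cox7c* the copies held at most 1.7% of the member's level, in *Uqcr10*. The strand setting of the counting is not given in the sources used here, so for the 7 members overlapped by another feature with a mean of at least 100 (*Ndufa1*, *Ndufa2*, *Ndufb2*, *Ndufb11*, *Uqcrh*, *Uqcrq* and *Cox4i1*) reads of a partner on the opposite strand cannot be told apart.

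Some members lie on the chromosome of a targeted gene. *Sdhb* and *Uqcrh* lie 11.2 and 13.6 Mb from *Khdrbs1* on chromosome 4, *Ndufb9* and *Ndufa6* 9.99 and 13.2 Mb from *Khdrbs3* on chromosome 15, and *Ndufb6* and *Cox6c* 89.4 and 33 Mb away on the same chromosomes. Whether the position moves with their values was not tested.

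The pattern over libraries was the same in nearly the whole set. As deviations from each gene's own mean over the 6 libraries (log2), the median member stood at -0.16, 0.00 and -0.05 in the wild-type libraries and at -0.17, 0.19 and 0.19 in the dKO libraries. dKO replicate 1 was the lowest dKO library in 53 of 56 members and lay below the wild-type mean in 45. It was below every wild-type library in 24 members and above every one in 3. dKO replicates 2 and 3 both exceeded every wild-type library in 47 members (83.9%), as they did in 15.5% of all features, and wild-type replicate 1 was the lowest wild-type library in 45. In 39 members the lowest values of all 6 belonged to wild-type replicate 1 and dKO replicate 1. Apart from the 47, these counts have no share over all features beside them, so they cannot be read as particular to the members.

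Over the 1540 pairs of members, the median Pearson correlation of log2 values across the 6 libraries was 0.86 and 1442 pairs were positive. This is a description of 6 points that share library and depth. Against the wild-type mean, the median member was lower by -0.09 (log2) in dKO replicate 1 and higher by 0.26 in the mean of the other two. The gap between dKO replicate 1 and the other dKO libraries was therefore wider than the median difference between genotypes (0.14).

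**Figure D4:**
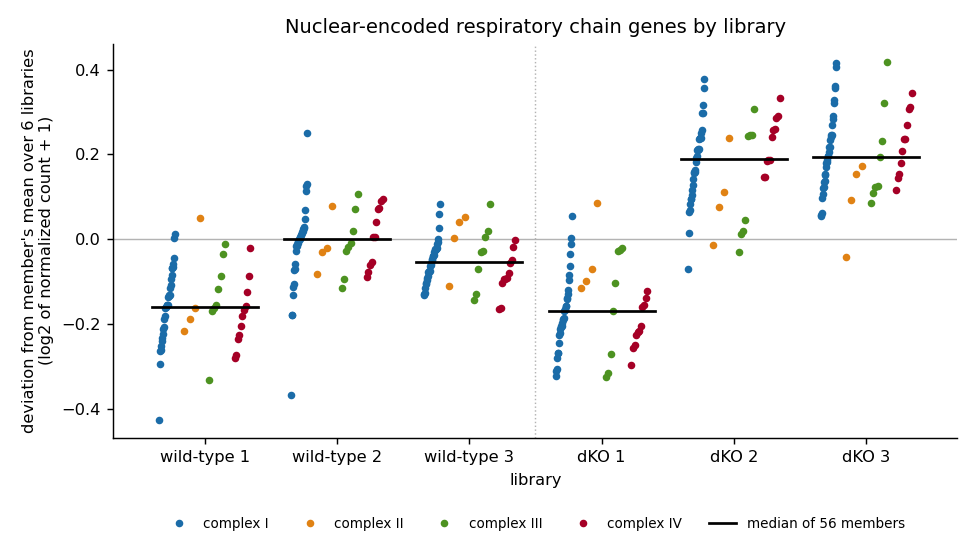
Deviation of each of the 56 members from its own mean over the 6 libraries (log2 of normalized count + 1), by library and coloured by complex, with the median of all members as a bar. The bars stand at -0.16, 0.00 and -0.05 in wild-type and at -0.17, 0.19 and 0.19 in dKO, so dKO replicate 1 sits with wild-type replicate 1.

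Without dKO replicate 1, 40 of the 56 members had an unadjusted *P*-value under 0.05 and were higher in dKO, against 6.15% of all features in that fit, and the median log2 difference was 0.26. Still 0 had an adjusted *P*-value under 0.05 in limma, the smallest being 0.056. All 11 complex IV genes were among the 40, with 24 of complex I, 4 of complex III and 1 of complex II. Without dKO replicate 2 and without dKO replicate 3, 0 members passed the unadjusted threshold (4.75% and 2.35% of all features were higher), and the medians were 0.09 and 0.06. Leaving out replicate 1 of both genotypes, a choice made after the data were seen, gave 30 members (5.3% of all features) and a median of 0.23. No label sets dKO replicate 1 apart, and it was kept.

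Transcript length moved with the same libraries. The members are short, with a median transcript of 863 bases against 3062 over the 13969 features with a known length, and 44 of them are at most 1500 bases long where 14.6% of those features are. Over these features the Spearman correlation of the deviation with length was 0.28 in wild-type replicate 1 and 0.34 in dKO replicate 1, but between -0.13 and -0.24 in the other 4 libraries. The 1994 other features of at most 1500 bases had median deviations of -0.11, 0.03 and 0.02 in wild-type and -0.12, 0.10 and 0.10 in dKO, so that both libraries numbered 1 were again the lowest and dKO replicates 2 and 3 the highest, with smaller deviations than in the members.

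By length, the 22 members of at most 700 bases had a median log2 difference of 0.17, beside 0.15 in the 264 other features of that length. In the 22 members of over 700 and at most 1500 bases it was 0.15, beside 0.03 in 1730 other features. In the 12 longer ones it was 0.08, beside 0.01 in 11919 others. These 12 include *Uqcrq* (0.17) and *Ndufb2* (0.14), the largest differences of the class. They were taken at 1521 and 4371 bases, but their shortest first-ranked transcripts have 405 and 455. The classes, and the trend below, used the longest first-ranked transcript only. All 4 members with an unadjusted *P*-value under 0.05 are in the shortest class.

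With the trend removed from each library by a lowess curve on log2 length, the median log2 difference of the members was 0.07 (0.00 over all 13969 features), and 46 were above 0 and 10 below. The library medians then lay at -0.01, -0.02 and -0.06 in wild-type and at -0.03, 0.05 and 0.07 in dKO. At an unadjusted *P*-value under 0.05, 3 members were higher, against 6.54% of all features in that fit, and 0 were lower. These were *Uqcrh* (0.21, unadjusted *P* = 0.0073 in limma), *Ndufa6* (0.16, unadjusted *P* = 0.03) and *Sdhb* (0.16, unadjusted *P* = 0.036), and the smallest adjusted *P*-value was 0.22. *Ndufa1* went from 0.40 to 0.21 and *Cox4i1* from 0.24 to 0.14. *Ndufb2* and *Uqcrq*, entered at their longest first-ranked transcripts, stood at 0.15 and 0.16. Among the genes that went below 0 were *Uqcrb* (-0.14), *Cox6a1* (-0.11) and *Ndufb8* (-0.10). The part of length in the differences was not tested beyond these values.

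Other genes of the pathway were read in the same way. A list of other subunits of these complexes, 4 of which were tested, had a median log2 difference of 0.07, with *Cox7a2l* at 0.18 (limma adjusted *P* = 0.53) and *Ndufab1* at 0.08 (limma adjusted *P* = 0.74), and *Cycs*, which encodes cytochrome c, stood at 0.05. Of 9 subunit isoforms known from muscle, lung, testis or hypoxic tissue, 3 passed the filter (*Cox4i2*, *Cox6b2* and *Ndufa4l2*), with a median of -0.38 and 0 at an unadjusted *P*-value under 0.05. The muscle forms *Cox6a2*, *Cox7a1* and *Cox8b* stayed between 0 and 12.3 normalized counts in the 6 libraries, far under *Cox6a1* and *Cox8a*, their ubiquitous counterparts.

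ATP synthase, complex V, behaved like the members. Its 18 genes had a median log2 difference of 0.15, and 17 were above 0. Their library medians were -0.17, -0.01 and -0.05 in wild-type and -0.19, 0.22 and 0.22 in dKO. 1 gene had an unadjusted *P*-value under 0.05, where 4.92% of all features were higher. This was *Atp5a1*, which encodes the catalytic head's alpha subunit, with 33231, 31891 and 31133 and then 36180, 33820 and 37869 (0.16, limma adjusted *P* = 0.43). *Atp5l* gave 933 to 1042 and then 916 to 1548 (0.36, limma adjusted *P* = 0.46).

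The 40 assembly factors tested had a median of 0.06, with 25 above and 15 below 0. At an unadjusted *P*-value under 0.05, 3 were higher (4.92% of all features) and 1 lower (6.58%). *Cox17*, a copper chaperone of complex IV, gave 537 to 637 in wild-type and 631 to 865 in dKO (0.38, limma adjusted *P* = 0.37). *Coa5* gave 3918 to 4625 and 4765 to 4888 (0.20, limma adjusted *P* = 0.40), without overlap, where 7.89% of all features lay fully above. The 14 regulators of respiratory genes, which include *Nrf1*, *Gabpa* and *Tfam*, had a median of 0.06 and 1 at that threshold, *Peo1*, the helicase of mitochondrial DNA (0.23, limma adjusted *P* = 0.39). *Esrra* stood at 0.21 (limma adjusted *P* = 0.50).

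The 13 TCA cycle genes had a median of 0.06 and 0 at an unadjusted *P*-value under 0.05; the smallest *P*-values belonged to *Mdh2* (0.16, limma adjusted *P* = 0.44) and *Idh3b* (0.14, limma adjusted *P* = 0.51). The 16 glycolysis genes, the cytosolic route, had a median of -0.05, with 1 higher (4.92% of all features) and 1 lower (6.58%) at that threshold. *Ldhb* gave 3522 to 4289 and then 4408 to 4848 (0.24, limma adjusted *P* = 0.39), and *Pfkp* 646 to 769 and then 369 to 558 (-0.58, limma adjusted *P* = 0.30). Neither pair of ranges overlapped, where 7.89% of all features lay fully above and 8.48% fully below. No gene of these lists had an adjusted *P*-value under 0.05.

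Subunits encoded by the mitochondrial genome, taken as a sum, were high in dKO replicate 2, as the nuclear members were, but not in dKO replicate 3. Their sum was also high in wild-type replicate 2. The table holds 13 features there without symbols, and by coordinates they cover 9 of the 13 protein-coding genes, the others being not analysed here. The largest, which covers *mt-Co1*, a core subunit of complex IV (chrM:5325-6941), gave 452188, 520394 and 488414 normalized counts in wild-type and 439187, 513821 and 455222 in dKO (log2 difference -0.05, limma adjusted *P* = 0.82). *mt-Nd2* of complex I stood at -0.02, the feature over *mt-Nd4l* and *mt-Nd4* at -0.05 and that over *mt-Nd5*, *mt-Nd6* and *mt-Cytb* at -0.02, none with an adjusted *P*-value under 0.05. A feature over *mt-Nd3* with a span of 346 bases gave 16038, 26585 and 19840 in wild-type and 15979, 37202 and 30550 in dKO (0.37, limma adjusted *P* = 0.72). Unlike the sum, it lay above the wild-type range in dKO replicate 3 as well as in dKO replicate 2. Of the 6 gene-covering features with the highest levels, no other stood above 0. Features at lower levels over *mt-Nd3* and over *mt-Nd5* and *mt-Nd6* stood at -0.38 and -0.28 (limma adjusted *P* = 0.48 and 0.50). They are not among the 6, which were taken by level and not by strand.

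Summed over these 6 features, the mitochondrial genome gave 1310710, 1504510 and 1318730 in wild-type and 1258670, 1541190 and 1250450 in dKO. The 56 nuclear members summed to 194658, 214082 and 207507 in wild-type and to 193282, 242554 and 247939 in dKO. dKO replicate 3 thus held the highest nuclear sum and the lowest mitochondrial one, whereas dKO replicate 2 was the highest in mitochondrial counts and the next highest in nuclear ones. The ratio of the mitochondrial to the nuclear sum was 6.7 ± 0.34 in wild-type and 5.97 ± 0.81 in dKO (SD, n = 3), with 5.04 in dKO replicate 3 and 6.35 to 7.03 in the other 5 libraries.

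Ribosomal protein genes, another set of short and abundant transcripts, were likewise high in dKO replicates 2 and 3, and their lowest library was wild-type replicate 1. The 73 cytosolic ones that were tested had library medians of -0.28, -0.05 and -0.07 in wild-type and -0.13, 0.26 and 0.28 in dKO, with a median log2 difference of 0.29. Of them, 39 were higher at an unadjusted *P*-value under 0.05 (4.92% of all features) and 1 lower (6.58%), and 0 passed the adjusted threshold in limma. With the length trend removed their median log2 difference was 0.19, beside 0.07 in the members. The 73 mitochondrial ones stood at -0.15, 0.07 and -0.05 and at -0.07, 0.09 and 0.10, with a median log2 difference of 0.08 (0.05 with the length trend removed). No difference between these lists and the members was tested.

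**Figure D5:**
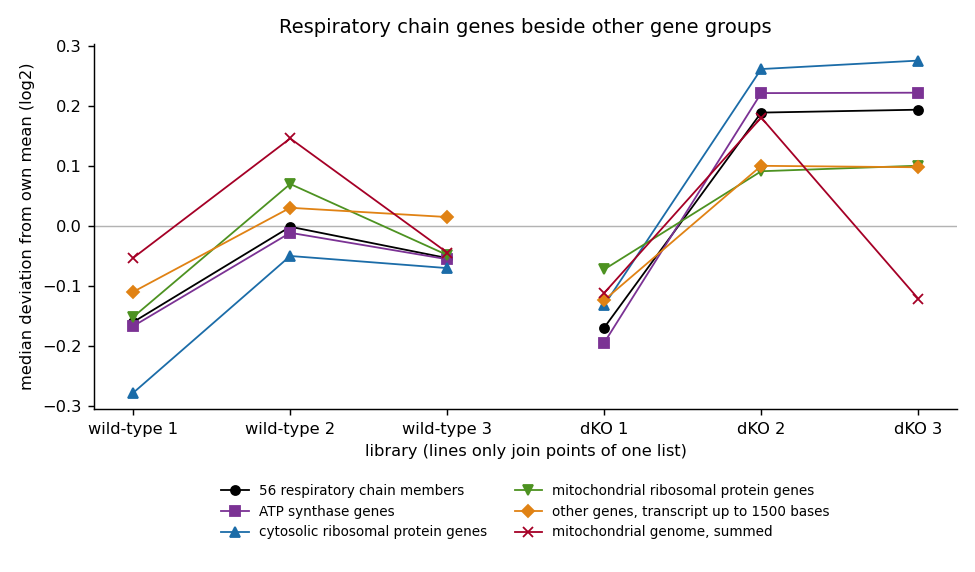
Median deviation from each gene's own mean (log2) by library for the 56 members, ATP synthase, cytosolic and mitochondrial ribosomal protein genes and other features with transcripts of at most 1500 bases, and the deviation of the summed mitochondrial genome. In dKO replicate 3 the members stand at 0.19 and the mitochondrial genome lies below its own mean.

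Markers of other cells were read beside the members. Summed over the list, 4 matched erythroid genes gave 26382 to 34879 normalized counts in wild-type and 28823 to 38417 in dKO. The 8 cortical excitatory neuron markers gave 96372 to 127977 and 107117 to 140191, with a median log2 difference of 0.19. Of them 7 stood above 0 and 1 below (-0.28). At an unadjusted *P*-value under 0.05, 2 of 8 were higher (*Neurod2* at 0.31 and *Bcl11b* at 0.31), against 4.92% of all features. The highest dKO library medians of these markers were in replicates 1 and 3, not 2 and 3. The 5 radial glia markers gave 30991 to 41990 and 32174 to 40987 (median -0.11). Of them 3 stood below 0, the lowest at -0.51, and 2 above 0, both higher at that threshold (*Pax6* at 0.28 and *Vim* at 0.23). The 5 endothelial ones gave 4259 to 5187 and 4175 to 4608 (-0.19), with 1 lower (*Kdr* at -0.66), against 6.58% of all features. The 5 microglial ones gave 1605 to 2283 and 1649 to 1986 (-0.15). Of the choroid plexus markers 2 of 5 passed the filter, and the list summed to 27.9 to 110 in wild-type and 23.6 to 61.7 in dKO. The 5 striated muscle markers, 3 of which passed the filter, summed to 118 to 187 and 54.4 to 132. What part these cells have in the members' values was not tested.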

How the data were processed

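RNA-seq libraries of E18.5 cortex were prepared with a stranded mRNA kit and grouped by the genotype in their labels, as 3 wild-type and 3 dKO samples. The submitters' processing notes name STAR 2.7.5a, SAMtools, Picard, FastQC, DESeq2 and the build mm10. The counting program and its strand setting are not given in the sources used here. The authors deposited, for each gene of the FAST database, a signal made from its reads by scaling with the library's size factor. Values above 0 were whole multiples of a smallest step in 100% of cases in every library (within 0.1 reads), and that step was used to recover reads for the count tests. The table has 0 columns that were left unused.

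The members and gene lists were chosen with earlier results of these data known. limma 3.58.1 (trend and robust options, R 4.3.3) took log2(normalized count + 1) of the features whose mean reached 10, with Benjamini-Hochberg adjustment over all 18970 and a threshold of 0.05. A fold change on this scale understates that of low genes. Nothing says that the 3 samples of a genotype are separate litters, so *P*-values measure only the spread between these samples. An exact permutation test of 3 against 3 cannot go below 0.1 and was not used. The fit was tested on simulated data. Alternatives were pseudocounts of 0.1 and 10, no filter or a mean of at least 100, TMM factors, quantile normalization, limma without those options, the quasi-likelihood test of edgeR 4.0.16 and the test of DESeq2 1.42.0 (both on recovered reads), a block for the replicate number, removal of a lowess trend on transcript length (span 0.3), and each library left out in turn.

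Members named with full values are the 8 of complex I, the 4 of complex II, the 4 of complex III and the 6 of complex IV with the smallest *P*-value, and the most and least abundant per kilobase of each complex. *Ndufv1*, *Ndufs1*, *Cox7b*, *Cox6a1*, *Uqcrb* and *Ndufb8* were named after their values were seen. Of each other list, the 2 genes with the smallest *P*-value are the ones the rule names. Transcript lengths came from GENCODE M21 (the longest transcript of the first APPRIS rank), copies of members from BLAST 2.17.0 and promoter windows from RefSeq. Python 3.11.15 with pandas 2.3.3 was used for the tables. A result on 1 other gene is not reported here.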

Additional observations from a re-analysis of the deposited data

How the results depend on the processing

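The absence of a member with an adjusted *P*-value under 0.05 held in limma, edgeR and DESeq2 and under the 19 alternatives tried. The median log2 difference of the members, 0.14 in the main fit, stayed above 0 but ran from 0.06 to 0.26 with 1 library left out. The spread of the library medians (SD 0.16) holds the genotype difference itself, so it cannot serve as a measure of how stable this median is. The count of members higher at an unadjusted *P*-value under 0.05, which is 4, was 0 in limma without the trend and robust options (3.52% of all features), 1 with quantile normalization (4.65%), 0 to 40 with 1 library left out (2.35% to 6.15%), and 30 without replicate 1 of both genotypes (5.3%), an alternative chosen after seeing the data. The count of members whose dKO libraries all lay above the wild-type ones, which is 1, was 0 with TMM factors and with quantile normalization, 8 with the length trend removed (9.85% of all features in that fit), 1 to 47 with 1 library left out (10.6% to 15.6% of all features) and 47 without replicate 1 of both genotypes (21.2%). The count whose dKO libraries all lay below, which is 0 (8.48% of all features), was 3 with the length trend removed and 0 to 1 with 1 library left out. The share of all features that lay below was not taken in those fits, so these counts have no background beside them. The counts of libraries that do not overlap do not depend on the pseudocount, the filter or the test.

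Libraries share replicate numbers, but nothing in the labels ties a number to a litter or day, so the numbers were not taken to pair them. The paper describes dKO mice as bred by intercrossing *Sam68* heterozygous mice that lack *Slm2*, a cross that yields no wild-type pups. Embryos of that cross are not littermates of wild-type ones, so litter and genotype cannot be told apart. On deviations from each genotype's own mean, the correlations of same-numbered libraries were 0.098, -0.23 and -0.079. Those of differently numbered libraries ran from -0.14 to 0.21. Such deviations balance out over the 3 libraries of a genotype, so these correlations cannot decide on pairing. With the replicate block, 13 members were higher at an unadjusted *P*-value under 0.05 (6.37% of all features) and 0 passed the adjusted threshold. With the length trend removed as well, the count was 3 (6.06%).

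Of 456 values for the 24 named members under the alternatives, 451 kept their sign. These members were named mainly by smallest *P*-value, so that count cannot stand for all 56. Of all members, 56 were above 0 in the main fit. With the length trend removed, with or without the replicate block, 46 were. The number was 48 with quantile normalization, 48 without dKO replicate 3, 50 without wild-type replicate 1 and 51 without dKO replicate 2. In the other fits it was 55 or 56. With quantile normalization *Sdha* turned to -0.051 and *Sdhc* to -0.0012. With 1 library left out, *Sdha* ran from -0.018 to 0.049 (below 0 without dKO replicate 1 and without wild-type replicate 2) and *Sdhc* from -0.026 (without wild-type replicate 1) to 0.12. The cause of these changes was not tested. Counting error was not set beside the spread between the 3 libraries of a genotype.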
